A study of Mus musculus with 1037 samples.

Results

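Cells sorted at CatVI as phagocytic and labelled apop were compared with cells sorted at the same stage as phagocytic and labelled alive. The apop side consisted of the cells of plate 5 and the alive side of the cells of plates 1 and 2, each cell with 2000 or more detected genes. This left 15 of the 85 apop wells, and 19 of 88 and 9 of 73 wells of the alive plates 1 and 2, 43 of the 463 cells that passed in the whole series. The lowest passing cells held 3006 and 2016 detected genes and the highest failing wells 1986 and 1576.

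All cells came from the skin of wild-type mice at postnatal day 17 (CatVI) and were labelled as hair follicle epithelial cells of the upper outer root sheath (uORS). Per the methods, 3 to 6 mice were pooled for a stage before the sort and no animal is named, so each side was 1 sample without replicates. The sort scheme of the study took CD34+ integrin α6+ cells and removed cells with CD31, CD45, CD117 or CD140a on their surface, with annexin V and DAPI for dying cells. How the phagocytic cells were told from the others in this sort, and what the letter f in the titles means, is not given in the sources used here. Label and plate could not be told apart for the apop cells, because all of them were on plate 5.

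The bulge of the hair follicle holds its stem cells, which keep quiet in the outer layer of the root sheath and rebuild the follicle in each growth phase. In catagen the lower follicle dies back, and epithelial cells next to the dying ones take up the corpses. TYRO3, AXL and MERTK are receptor tyrosine kinases that recognize phosphatidylserine on corpses through the bridging proteins GAS6 and PROS1. ALDH1A2 makes retinoic acid, the ligand of the RAR nuclear receptors, from retinal.

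The 15 apop cells held 33904 to 151461 annotated counts (median 75172) and the 28 alive cells 6258 to 190160 (median 53814), which summed to 1135071 and 2046380. Detected genes were 5209 at the median in apop and 4199 in alive cells. ERCC spike-in counts were 4.08 per 100 annotated counts at the median in apop and 4.26 in alive cells. *Malat1*, a nuclear RNA, stood at 13482 CPM in apop and 14797 CPM in alive cells. The 2 alive plates differed from each other, with *mt-Rnr2*, the large mitochondrial ribosomal RNA, at 11.6% of annotated counts on plate 1 and 29.1% on plate 2. Much of the plate 2 value came from the cell in well F12, with 69.9% of its 171232 annotated counts in *mt-Rnr2*. The other cells of plate 2 held 2.45% to 29.4%, and those of plate 1 2.49% to 29.7%. Well positions were shared by 7 pairs of passing cells across sides, always on different plates.

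Of the alive cells, 5 held under 100 CPM of *Krt5* and *Krt14* together, the keratins that define the basal epithelium, and none of the apop cells did. On plate 1, the cell in well F2 held all 6 endothelial markers at 6814 CPM and the cell in well G9 held 5 of the 6 at 1631 CPM. On plate 2, the cell in well D5 held all 8 melanocyte markers at 9238 CPM, and the cell in well F7 held 4 of the 19 immune markers at 2389 CPM. The cell in well F12 of plate 2 held 7308 detected genes and 69.9% of its annotated counts in *mt-Rnr2*. These 5 cells gave 17.8% of the alive counts, although the antibodies of the sort would have removed cells with CD31, CD45 or CD117. In the apop cells the endothelial markers were at 0 for 6 of 6 genes, the immune markers for 18 of 19 and the melanocyte markers for 4 of 8, with 0.881 CPM summed over the immune markers and 32.6 CPM over the melanocyte markers. Values without these 5 cells are given below for some results only. Where no such value is given, the part of the 5 cells is not shown.

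The stem cell label was checked against its own markers. *Cd34*, the surface protein used in the sort, had counts in 1 of 15 apop cells and 2 of 28 alive cells, and *Itga6* in 7 of 15 and 21 of 28. *Krt15*, a keratin of bulge stem cells, reached 100 CPM in 3 apop and 16 alive cells. *Sox9*, a transcription factor of the outer root sheath and its stem cells, was detected in 13 of 15 apop and 19 of 28 alive cells. *Krt6a*, a keratin of the companion layer and the inner bulge that also appears in stressed epidermis, reached 100 CPM in 12 of 15 apop cells and in 9 of 28 alive cells, of which 7 were on plate 1 and 2 on plate 2. Reads of *Krt6a* can be shared with its near-identical copy *Krt6b*, so that these copies are not fully resolved.

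Both sides were mixed in their keratins, the alive side more so. *Krt14* ranged from 0 to 25359 CPM in apop cells (median 10963 CPM) and from 0 to 23854 CPM in alive cells (median 502 CPM). The groups overlapped, since 6 alive cells of plate 1 held 7310 CPM or more, with *Krt6a* above 100 CPM, *Krt15* at 0 and *Fn1* at 0. Of the remaining alive cells, 13 held *Fn1*, which encodes the matrix protein fibronectin, at 100 CPM or more, against 1 apop cell, and 1 of these 13 also held *Krt6a* at 100 CPM. Of the 13, 3 were among the cells low in *Krt5* and *Krt14*. The plot of levels by cell shows both kinds of alive cell side by side.

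**Figure D1:**
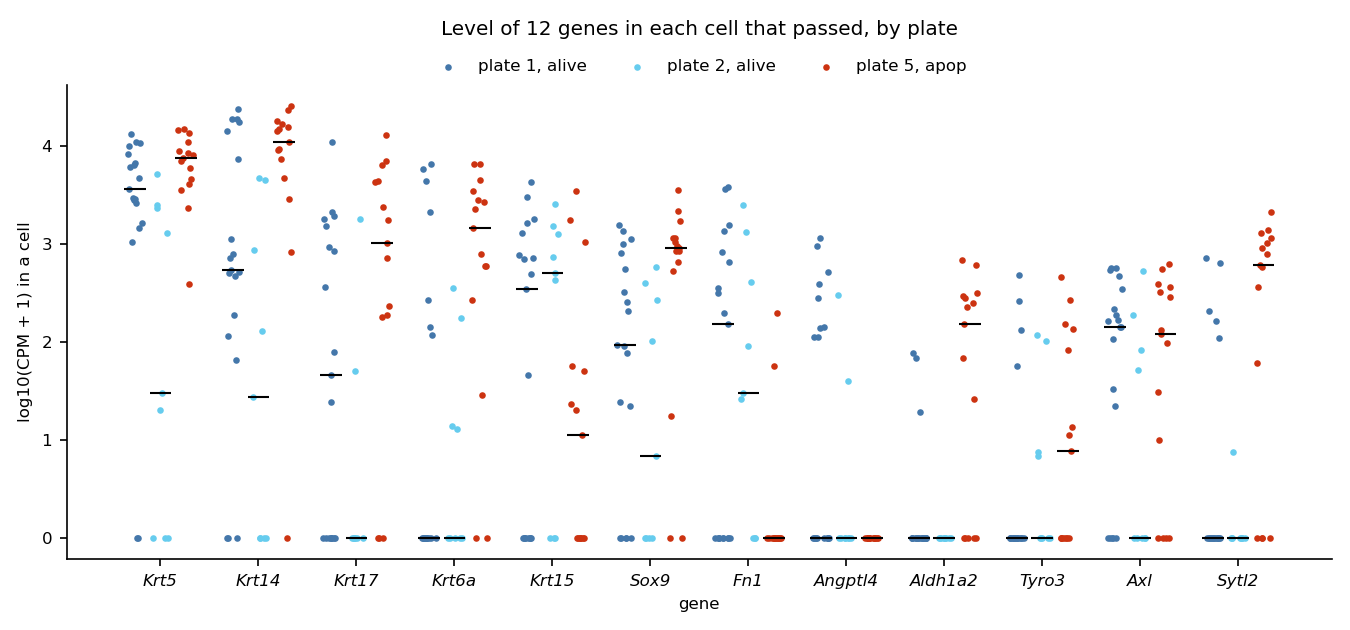
Level of 12 genes in each of the 43 cells as log10(CPM + 1), with a point for each cell, a black line for the median of a plate, and colours for plates 1 and 2 (alive) and plate 5 (apop). Points at 0 had no count. *Aldh1a2* was detected in 10 apop cells and 3 alive cells, all 3 on plate 1, and *Sytl2* in 11 and 6, whereas *Fn1* was detected in 2 apop and 16 alive cells and *Angptl4* in 0 and 11.

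Of 10710 genes with 20 or more counts over both sides, 1767 (16.5%) were at least 2-fold higher in the apop sum and 3123 (29.2%) at least 2-fold lower, with a median log2 ratio of −0.22. Without the 5 alive cells low in *Krt5* and *Krt14*, 1675 of 9999 genes (16.8%) were higher and 2779 (27.8%) lower. These shares were not above the difference between the plates of 1 label: 58.8% of genes differed at least 2-fold between plates 1 and 2, both alive, compared with 48.2% between plates 5 and 1 and 57.9% between plates 5 and 2. Plate 2 held 9 cells and 650395 annotated counts. Its 3 cells low in *Krt5* and *Krt14* held 171232, 52317 and 52066 of these. The share between plates 1 and 2 was not calculated without them. A 2-fold difference that held against either alive plate alone, after removal of each gene's top cells and when every cell was weighted equally, was met by 809 (7.55%) higher and 1042 (9.73%) lower genes. Between the 12 apop and 9 alive cells with *Krt6a* at 100 CPM or more, 2304 of 7487 genes (30.8%) were higher and 1516 (20.2%) lower. Those 9 alive cells were mixed. Wells E2 of plate 1 and H6 and F11 of plate 2 held *Krt15* at 4296, 1512 and 427 CPM. Their *Krt14* stood at 777, 868 and 26 CPM, whereas the others of the 9 held 7310 CPM or more and no *Krt15*. A total of 729 genes had no count in the apop cells and 48 none in the alive cells. The sides were unequal, with 1135071 annotated counts over 15 apop and 2046380 over 28 alive cells. A gene could thus reach 20 counts more easily on the alive side alone.

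**Figure D2:**
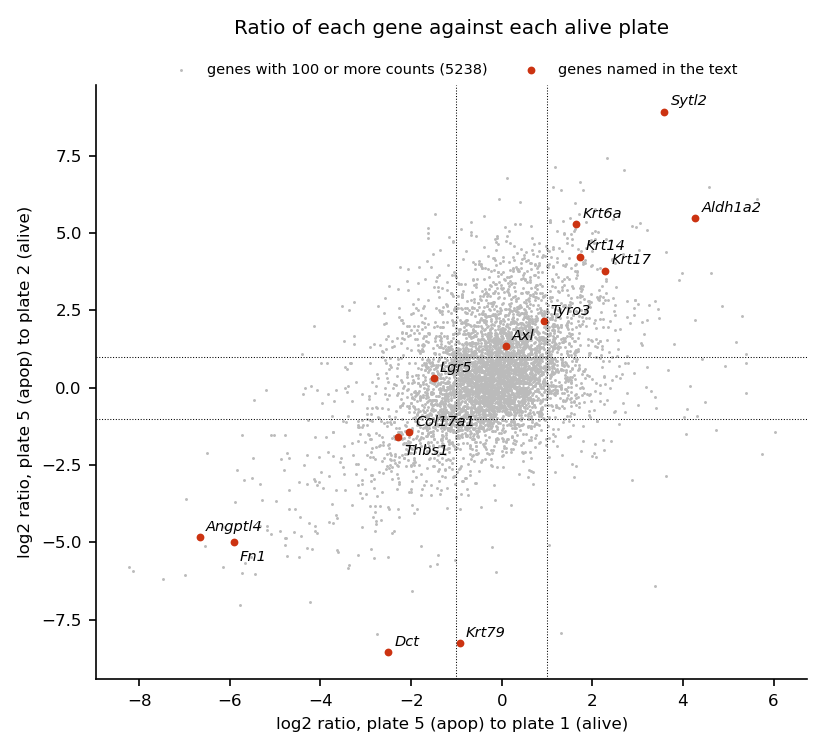
Log2 ratio of plate 5 (apop) to plate 1 (alive) on the x axis and to plate 2 (alive) on the y axis for genes with 100 or more counts, with dotted lines at 2-fold and named genes in red. *Aldh1a2* and *Sytl2* lay at 4.27 and 3.59 against plate 1 and at 5.49 and 8.93 against plate 2, whereas *Krt79* and *Dct* stood far from 0 mainly against plate 2.

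*Aldh1a2* (ENSMUSG00000013584.5, GRCm39 chr9:71122630-71203527) was the clearest difference among the genes that prompted the comparison. It stood at 207.04 CPM (181.4 to 235.3) in the apop cells and at 7.33 CPM (4.1 to 12.1) in the alive cells, where it held 15 counts. In single apop cells it ranged from 0 to 685 CPM with a median of 149.1 CPM. It was detected in 10 of 15 apop cells (66.7%, 38.4 to 88.2%) and in 3 of 28 alive cells (10.7%, 2.27 to 28.2%), and after each cell was thinned to 10000 counts in 8 of 15 and 0 of 27. The log2 ratio was 4.82 (4.07 to 5.68), with 4.27 against plate 1 and 5.49 against plate 2, and no apop cell held more than 25.5% of the counts. All 3 alive cells with counts were on plate 1, at 74.6, 66.8 and 18.2 CPM. Each of these 3 cells, and each of the 10 apop cells, also held *Krt6a* at 100 CPM or more. Within the 12 apop and 9 alive cells with that much *Krt6a*, *Aldh1a2* was detected in 10 and 3 cells and the log2 ratio was 3.20. That minimum was chosen after seeing the data and marks a range, not a cell type: 3 alive and 0 apop cells lay between 50 and 200 CPM.

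*Tyro3* (ENSMUSG00000027298.17, chr2:119628214-119648738) held 78 counts in apop and 60 in alive cells, or 68.7 CPM (54.3 to 85.8) and 29.3 CPM (22.4 to 37.7). It was detected in 8 of 15 and 8 of 28 cells, at most 457 CPM in an apop cell and 479 CPM in an alive cell, so the groups overlapped throughout. The log2 ratio of 1.23 (0.72 to 1.74) was under 2-fold against plate 1 (0.94) and stood at 2.16 against plate 2. A single alive cell held 61.7% of the alive counts, and the ratio was 1.72 in the cells with *Krt6a*.

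*Axl* (ENSMUSG00000002602.16, chr7:25456535-25488329) stood at 203.5 CPM (178.1 to 231.5) in apop and 155.4 CPM (138.8 to 173.4) in alive cells. It was detected in 11 of 15 and 18 of 28 cells, with medians of 119.6 and 93.4 CPM per cell and highest values of 613 and 567 CPM. The log2 ratio of 0.39 (0.14 to 0.64) did not reach 2-fold. It was 0.09 against plate 1, 1.35 against plate 2 and −0.41 in the cells with *Krt6a*. *Mertk*, the third receptor of the family, stood at 83.7 CPM in apop and 132.9 CPM in alive cells, a log2 ratio of −0.67, with counts in 12 of 15 and 12 of 28 cells. The summed ratios of the 3 receptors thus did not share a direction, but those of *Axl* and *Mertk* were under 2-fold. The ratio of *Mertk* ranged from −0.95 to 0.19 over the alternatives, and *Mertk* was detected in a larger share of apop than of alive cells.

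In the 14 cells of plate 6 (CatVI, sorted as not phagocytic and labelled apop), which were in neither side, *Aldh1a2* stood at 27.2 CPM with counts in 2 cells, *Tyro3* at 4.53 CPM in 2 cells and *Axl* at 117.8 CPM in 10 cells. The cells of plate 6 were shallower, which lowers detection. Their medians were 24765 annotated counts and 3269 detected genes, against 75172 and 5209 on plate 5.

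Of the genes that met the rule for naming, 352 were higher and 308 lower in the apop cells. *Cfap410*, a gene of the ciliary base, had the highest log2 ratio (4.96, 3.99 to 6.11), at 136.6 CPM in apop and 4.4 CPM in alive cells, with detection in 11 of 15 and 4 of 28 cells. *Aldh1a2* followed. *Ppm1h*, a protein phosphatase that acts on Rab GTPases, stood at 281.04 CPM in apop and 14.7 CPM in alive cells, a log2 ratio of 4.26. *Sytl2*, a Rab27 effector of vesicle transport to the membrane, was the most abundant of the 12, at 750 CPM (700 to 802) in apop and 43 CPM (34.5 to 53) in alive cells. It was detected in 11 of 15 apop cells, up to 2098 CPM, and in 6 of 28 alive cells, up to 711 CPM. Of those 6 alive cells, 5 held *Krt6a* at 100 CPM or more, and within the cells with *Krt6a* the log2 ratio of *Sytl2* was 2.52 instead of 4.12.

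The other genes of the 12 had varied roles. *Rab11fip2*, a Rab11 effector of recycling endosomes, had a log2 ratio of 3.61 at 185.01 and 15.1 CPM. *Bmp2k*, a kinase related to the clathrin adaptor kinase, had 3.89 with detection in 11 and 9 cells. *Hes1*, a repressor and target of Notch, had 3.63 and 96 counts against 14, and *Tle4*, a corepressor of the Groucho family, had 3.30. *Map3k3*, a kinase upstream of stress kinases, had 3.76, with 0 counts in the 9 alive cells with *Krt6a* and detection in 9 of the 12 apop cells with it, so that its ratio there is against the floor of 3 counts. *Cyp2b19*, a keratinocyte arachidonic acid epoxygenase, was seen in 6 of 15 and 3 of 28 cells at 3.75. *Plxdc1* (3.76) and *Rasal2* (3.34), a Ras GTPase activator, completed the 12. All 12 kept a log2 ratio above 1.5 within the cells with *Krt6a*, the lowest being *Rasal2* at 1.60. The genes were picked for high ratios over cells that include these, so the values there are no independent check.

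The genes at the low end were at or near 0 in nearly every apop cell. *Angptl4*, a secreted inhibitor of lipoprotein lipase and a target of PPAR nuclear receptors, had 0 counts in the 15 apop cells, up to 3.25 CPM by the Poisson limit, and 424 counts in 11 of 28 alive cells (207.2 CPM), where it reached 1130 CPM. Against a floor of 3 counts this was a log2 ratio of −6.29. *Fn1* held 14 counts in 2 apop cells and 1295 counts in 16 alive cells, or 12.3 CPM (6.74 to 20.7) and 633 CPM (599 to 668), a log2 ratio of −5.68. It was −5.92 against plate 1, −4.99 against plate 2 and −5.87 in the cells with *Krt6a*. There all 12 apop cells held no *Fn1*, so that this ratio is against the floor of 3 counts. Of the 9 alive cells there 2 held it, at 1321 CPM in well F11 and 24.8 CPM in well H6, both on plate 2. *Slc38a4*, an amino acid transporter, had 1 count against 402 (log2 ratio −7.80, −13.1 to −5.31), and *Dll1*, a Notch ligand, 1 count against 127.1 CPM in alive cells (−7.17, −12.5 to −4.68). A single apop cell in well E5 held the 1 count of each, and it also held *Fn1* at 194.6 CPM and *Krt15* at 1038 CPM, with no *Krt6a*. It was one of the 3 apop cells under 100 CPM of *Krt6a*.

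The other low genes had the same pattern over cells. *Ubash3b*, a regulator of receptor tyrosine kinase turnover, had 1 count against 95.3 CPM in alive cells (−6.76), *Cd276*, an immune checkpoint ligand, 1 against 78.7 CPM (−6.48), and *Caskin2*, a scaffold protein, 2 against 78.7 CPM (−5.48). *Pcdh19*, a protocadherin, held 6 counts in 2 apop cells and 344 in 13 alive cells (−4.99). *Traf3*, an adaptor of TNF receptor signalling, held 4 against 103.6 CPM (−4.88), *Dusp6*, a phosphatase of ERK induced by ERK itself, 5 against 124.6 CPM (−4.82), *Tbc1d16*, a Rab GTPase activator, 2 against 66.5 CPM (−5.24) and *Nr6a1*, an orphan nuclear receptor, 2 against 57.2 CPM (−5.02). Leaving out the 5 alive cells low in *Krt5* and *Krt14* moved none of these 12 by more than 0.3. Of the 12, all but *Dll1* and *Fn1* held too few counts within the cells with *Krt6a* for a ratio there. Most of the counts of the 12 genes were in alive cells with *Krt6a* under 100 CPM, as the plot of named genes by cell shows.

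**Figure D3:**
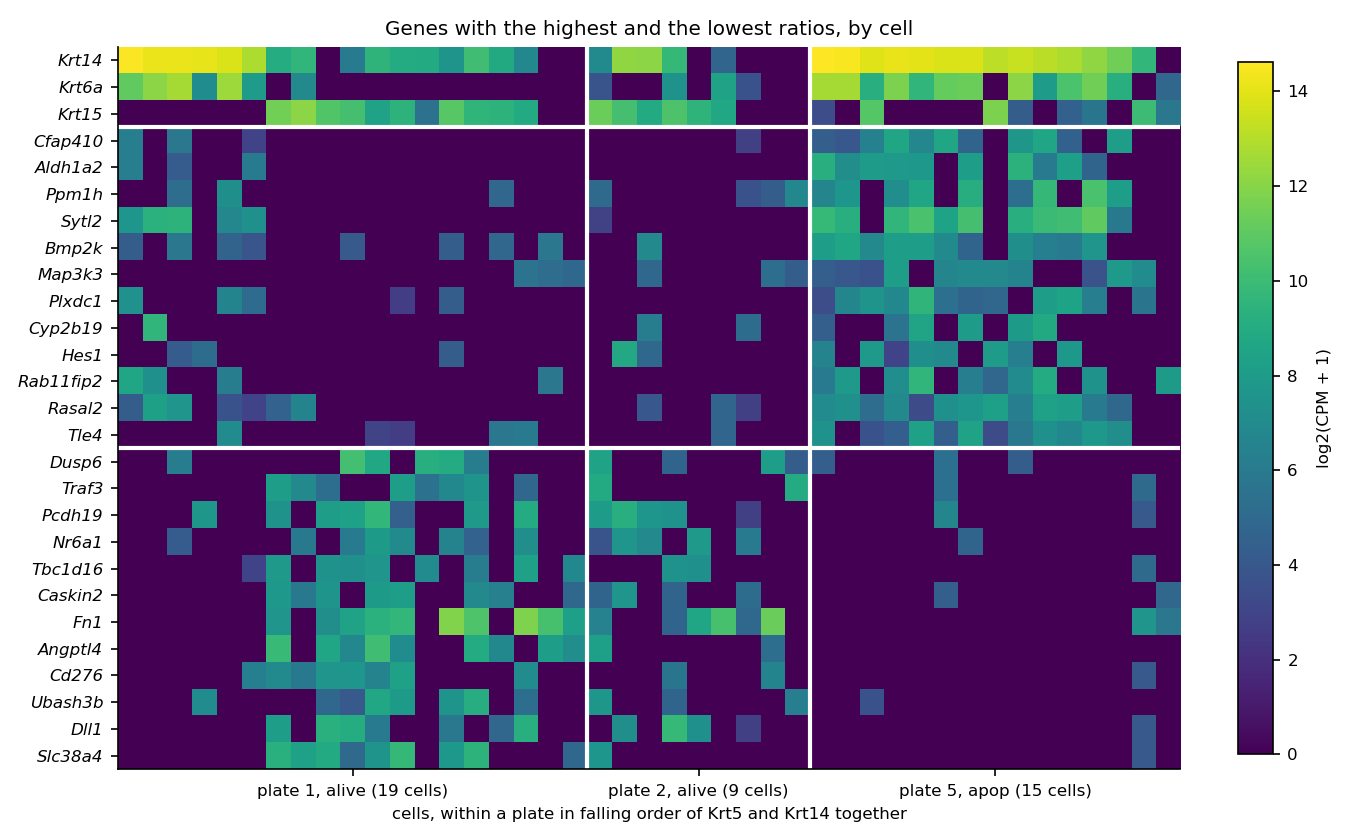
Log2(CPM + 1) of 3 keratins, the 12 genes with the highest ratios and the 12 with the lowest (rows) in each of the 43 cells (columns), with white lines between plates and between gene groups. Apart from *Cyp2b19*, the 12 high genes were spread over most cells of plate 5. Several, such as *Sytl2*, *Aldh1a2*, *Rasal2*, *Bmp2k*, *Cfap410*, *Plxdc1* and *Rab11fip2*, also had counts in cells of plate 1 with *Krt14* and *Krt6a*. The 12 low genes were mostly in the other cells of plates 1 and 2.

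The keratin and adhesion genes differed within their lists. Among 15 basal keratins, integrins and their partners, 3 were at least 2-fold higher in apop cells (*Krt17*, *Krt14* and *Krt5*) and 5 lower, with a median of −0.31 against −0.22 over all genes. The shares were 20% higher and 33.3% lower, beside 16.5% and 29.2% over all genes. *Krt14* had a log2 ratio of 2.16 (2.11 to 2.20) and *Krt5* of 1.23 (1.19 to 1.28). Among the lower genes were *Itga3*, *Col17a1*, *Itga6* and *Itgb1*, which anchor basal cells to the basement membrane. Within the cells with *Krt6a* the ratios of *Krt14* and *Krt5* were 0.63 and 0.39. Of 13 cadherin and desmosome genes, 4 were higher (*Perp*, *Dsg3*, *Pkp1* and *Jup*) and none lower, with a median of 0.68. *Perp*, a desmosome protein that is also a p53 target, stood at 2192 and 561 CPM, and *Dsp*, desmoplakin, at 5734 and 3572 CPM with a log2 ratio of 0.68.

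The compartment markers were mixed in direction, beside 16.5% higher and 29.2% lower over all genes. Of 18 bulge stem cell genes, 6 were higher and 4 lower, with *Sox9* at 2.37, *Lgr5* at −1.13 and *Krt15* at −0.68. The ratio of *Lgr5*, the receptor for R-spondins, turned to 0.32 against plate 2. Of 8 genes of the lower outer root sheath and hair germ, none was higher and 5 were lower (*Msx2*, *Gli1*, *Lef1*, *Lgr5* and *Ptch1*), with a median of −1.09 that turned to 0.60 without plate 1. Of the 3 inner bulge and companion layer genes with enough counts, *Krt6a* was at 2302 and 522 CPM (log2 ratio 2.14) and *Bmp6* was higher, whereas *Krt75* was lower, at 27.3 and 135.8 CPM (−2.31), and turned to 0.21 without plate 2. Of 9 upper follicle genes, 3 were higher and 4 lower. *Krt79*, a keratin of the duct of the upper follicle, had 0 counts in apop cells and 534 in 4 alive cells, of which 2 on plate 2 held 5324 and 6137 CPM. Of 6 epidermal differentiation genes, 4 were higher (*Sbsn*, *Dmkn*, *Lgals7* and *Klf4*) and 1 lower, with a median of 1.30. With every cell weighted equally the median was 0.58. Only 1 of the higher genes stayed 2-fold against either plate alone, without top cells and with cells weighted equally. *Sbsn*, suprabasin, stood at 573 and 108.97 CPM with counts in 13 of 15 and 12 of 28 cells.

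Genes of corpse clearance differed in both directions. Of 12 receptors with 20 or more counts out of 22, 4 were higher (*Scarb1*, *Itgb5*, *Itgb8* and *Tyro3*) and 4 lower (*Stab2*, *Stab1*, *Itgb3* and *Cd36*), or 33.3% each way, beside 16.5% higher and 29.2% lower over all genes. *Itgb8*, an integrin that binds latent TGFβ, stood at 295.1 and 112.4 CPM (1.39), and *Lrp1*, a receptor for calreticulin on corpses, at 512 and 517 CPM (−0.01). *Stab2* rested on a single alive cell with 99.7% of its 310 counts, and the median of the list was −0.32. Without the 5 cells low in *Krt5* and *Krt14*, 8 of the 12 receptors held enough counts, with a median of 0.61, and 0.81 for the same 8 over all cells. Of 7 bridging molecules none was higher and 2 were lower (28.6%, beside 29.2% over all genes). *Thbs1*, thrombospondin 1, was the most abundant at 913 CPM (33% in 1 cell) and 3926 CPM, with a log2 ratio of −2.10 (−2.20 to −2.01) and detection in 11 of 15 and 20 of 28 cells. *Gas6*, the ligand of the TYRO3 family, had −1.18, and *Mfge8*, which links phosphatidylserine to integrins, 0.05. The ratio of *Gas6* was 0.32 in the cells with *Krt6a*, where that of *Thbs1* was −3.08.

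Inside the cell, of 15 genes of the engulfment machinery 1 was higher (*Rhog*) and 5 lower, with a median of −0.34. That was 6.67% and 33.3%, beside 16.5% higher and 29.2% lower over all genes. *Dock1*, an activator of Rac in engulfment, had −1.45, with 0.15 against plate 2, and *Abca1*, a lipid exporter, 0.36. Of 21 genes of phagosome maturation and LC3, 3 were higher and 4 lower (14.3% and 19%). *Rubcn*, Rubicon, which is needed for LC3-associated phagocytosis, stood at 182.4 and 31.3 CPM with a log2 ratio of 2.54 (2.13 to 2.97), in 12 of 15 and 8 of 28 cells, and 2.36 in the cells with *Krt6a*. *Map1lc3b*, an LC3 gene, had −1.01, and 0.50 in the cells with *Krt6a*. Of 39 lysosomal genes, 7 were higher and 6 lower (17.9% and 15.4%, beside 16.5% and 29.2% over all genes), with a median of 0.27. *Ctsd*, the protease cathepsin D, stood at 1626 and 370 CPM (2.14, 2.01 to 2.26) in 14 of 15 and 26 of 28 cells, and *Psap*, prosaposin, at 743 and 993 CPM (−0.42).

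Of 10 retinoid genes with enough counts out of 21, 6 were higher (*Aldh1a2*, *Rdh10*, *Crabp2*, *Rxrb*, *Dhrs3* and *Dhrs9*) and 1 lower (*Rara*), 60% and 10%, with a median of 1.05. Over all genes 16.5% were higher and 29.2% lower. The stricter 2-fold rule, with either plate alone, without top cells and with cells weighted equally, was met by 1 higher and 1 lower gene. *Rdh10* and *Dhrs9*, which oxidize retinol to retinal, and *Crabp2*, which carries retinoic acid to the nucleus, were low: *Rdh10* held 26 counts against 16 and *Crabp2* 15 against 12. *Crabp2* turned to −0.22 against plate 2. *Rara*, a retinoic acid receptor, stood at 22.9 and 92.4 CPM (−2.01, −2.66 to −1.42) with counts in 7 of 15 and 19 of 28 cells. *Rxra* stood at 410 and 367 CPM (0.16) and *Rarg* at 110.1 and 173.5 CPM (−0.66). The median of the list was 0.84 without the 5 cells low in *Krt5* and *Krt14* and 0.60 in the cells with *Krt6a*. With every cell weighted equally it was 0.54. Of 10 lipid sensing genes none was higher and 5 were lower, with *Plin2*, a lipid droplet protein, at −2.06 beside *Angptl4*, and *Cpt1a*, which admits fatty acids to mitochondria, at 0.75.

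The lists of the death machinery differed from each other. Of 7 genes of the pro-death BCL2 family, none was at least 2-fold higher and 5 were lower (*Pmaip1*, *Bid*, *Bax*, *Bad* and *Bmf*), 71.4%, with a median of −1.73. *Bmf* stood at 20.3 and 63 CPM and *Bcl2l11*, which encodes BIM, at 87.2 and 85 CPM. In the cells with *Krt6a* only 3 of the 7 genes held enough counts, and their median was −0.06 there and 0.04 over all cells. Of 26 caspases, death receptors and executioners, 7 were higher and 6 lower (26.9% and 23.1%, beside 16.5% and 29.2% over all genes), with a median of 0.20. *Xiap*, an inhibitor of caspases, had a log2 ratio of 2.14 and *Casp2* of −0.74. Of 13 p53 targets, 4 were higher and 1 lower (30.8% and 7.69%). Of 8 genes of the unfolded protein response, none was higher and 3 were lower (37.5%), and *Hspa5*, the chaperone BiP, stood at 78.4 and 156.9 CPM.

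Of 19 immediate early and heat shock genes, 1 was higher (*Klf4*) and 6 lower, with a median of −0.42. That was 5.26% and 31.6%, beside 16.5% higher and 29.2% lower over all genes. *Fosb* stood at 114.5 CPM in 2 apop cells and 388.98 CPM in 9 alive cells (−1.76), and *Fos* at 133.9 CPM in 6 and 275.6 CPM in 9 (−1.04). Both reversed in the cells with *Krt6a*, where the ratio of *Fosb* was 5.97 and that of *Fos* 5.199, over 1 and 2 alive counts and, for *Fosb*, 1 apop cell. A single apop cell held 82.3% of all apop counts of *Fosb* and 71.1% of those of *Fos*. *Jun* stood at 616 and 753 CPM in 14 of 15 and 21 of 28 cells. Of 11 interferon and MHC class I genes, 5 were higher (*Psmb8*, *Tap2*, *B2m*, *Irf9* and *Stat2*) and none lower, with a median of 0.63. *B2m*, the light chain of MHC class I, stood at 161.2 and 51.8 CPM (1.64, 1.29 to 1.997), with 2.23 against plate 1 and 0.85 against plate 2.

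**Figure D4:**
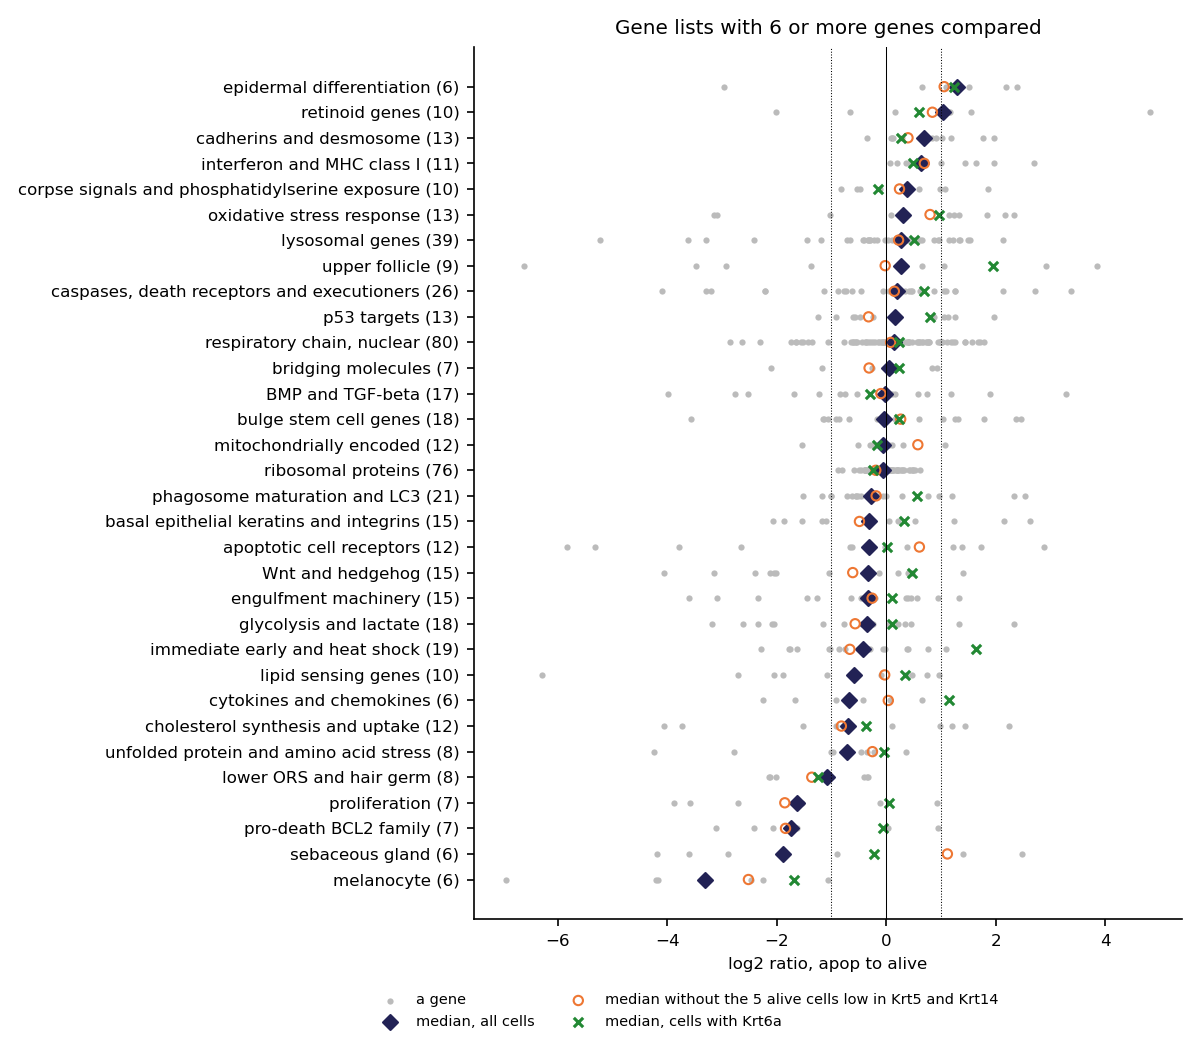
Log2 ratio, apop to alive, of the genes of each list with 6 or more genes compared (grey points, number of genes in brackets), with the median over all cells (diamonds), the median without the 5 alive cells low in *Krt5* and *Krt14* (circles) and the median in the cells with *Krt6a* at 100 CPM or more (crosses). Epidermal differentiation and retinoid genes had medians of 1.30 and 1.05, and the pro-death BCL2 family and proliferation had −1.73 and −1.64. Circles and crosses cover the members with enough counts in those cells, which for these latter lists were 3 of 7 and 5 of 7 genes at the crosses.

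None of the 76 ribosomal protein genes differed 2-fold in either direction and their median was −0.06. That median was 0.12 against plate 1, −0.40 against plate 2 and −0.49 with every cell weighted equally. Of 12 mitochondrially encoded genes, 1 was higher and 1 lower, with a median of −0.06 that was 0.63 against plate 1 and −0.85 against plate 2. Over all genes 16.5% were higher and 29.2% lower. Without the alive cells low in *Krt5* and *Krt14*, among them well F12 of plate 2, 11 of the 12 mitochondrial genes held enough counts. Their median was 0.58, and −0.03 for the same 11 over all cells. With every cell weighted equally the median of the 12 was 0.30, and in the cells with *Krt6a* it was −0.16 over 11 genes.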

How the data were processed

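Single-cell RNA-seq (Smart-seq2) counts of sorted cells from wild-type mouse skin were analysed. Per the labels and the methods, the authors aligned reads with STAR 2.6 to mm39, quantified them with Salmon 1.4.0 and summed them per gene with tximport in R 3.6.1 before the estimated counts were deposited, with no normalization and no filter on cells. Wells with poor amplification or several cells had been removed by the authors after a qPCR. No doublet caller was run here.

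Estimated counts were rounded. Symbols and positions came from GENCODE vM39 on GRCm39, which held 51654 of 55335 gene identifiers. CPM (counts scaled to 1e6) were taken over these annotated genes, with the 92 ERCC spike-ins left out, because the unannotated identifiers took most of the counts. The sum over a side was divided by that total. A side at 0 was set to 3 counts, and no ratio was given where both sides held 3 or fewer. Each side was 1 pool, so no test was made. Intervals at 95% are exact Poisson limits for CPM, exact binomial splits for ratios and exact Clopper-Pearson limits for shares, and cover counting error only. Without molecular identifiers, reads of 1 molecule were counted repeatedly. The calculation was tested on simulated data of this comparison: of 10710 genes 200 were changed, the sign was right for 200, and interval coverage was 95.8%.

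Genes named are *Aldh1a2*, *Tyro3* and *Axl*, 2 to 4 members of each gene list by counts, and 12 genes from either end of the ratios, taken from genes with 100 or more counts, a count in at least 1/3 of the cells of the higher side, no cell over 50% of it, and 2-fold in the same direction against plates 1 and 2 each. The genes compared, the markers and the lists were chosen with earlier results of these data known. *Cd34*, *Itga6*, *Mertk*, *mt-Rnr2*, *Rdh10* and *Crabp2* were named after their values were seen, as were list members given only as the genes behind a count. Alternatives changed scaling (edgeR 4.0.16 for TMM), filters, cells and plates, and 3 were added after seeing the data. Python 3.11.15, numpy 2.4.6, pandas 2.3.3, scipy 1.17.1 and R 4.3.3 were used.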

Additional observations from a re-analysis of the deposited data

Results flagged for a closer look

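The contrast of apop and alive cells was past 2-fold in the opposite direction at CatVII for 3 of the 24 genes with the highest and lowest ratios at CatVI. Others of the 24 had the opposite sign at CatVII without reaching 2-fold, such as *Dll1* (0.94). Each stage was 1 pool per label, so the difference between stages was not tested, and the CatVII sort has no phagocytic label. *Aldh1a2* had a log2 ratio of −2.94 at CatVII, with 4 counts over the apop cells, and 4.82 at CatVI. *Cyp2b19* had −2.19 at CatVII, with 3 counts against 49, and 3.75 at CatVI. *Map3k3* had −1.10 at CatVII, with 298 counts against 2292, and 3.76 at CatVI. At CatVII *Aldh1a2* stood at 0.258 CPM in apop and 1.98 CPM in alive cells, below both levels at CatVI.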

How the results depend on the processing

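Counts of genes past 2-fold moved by over 1.5 times under few of the 16 alternatives. Higher and lower genes numbered 627 and 1082 among genes with 100 or more counts, 2948 and 1857 without plate 1, and 419 and 864 with each cell thinned to 10000 counts, an alternative that leaves fewer genes to compare. With genes of 1 or more counts 2849 were higher, and in the cells with *Krt6a* at 100 CPM or more, an alternative added after seeing the data, 1516 were lower. The median log2 ratio moved to 0.32 without plate 1 and to 0.23 in the cells with *Krt6a*. Sign changes are given for values past 2-fold over all cells. Without plate 1, log2 ratios turned sign for *Lgr5* (0.32), *Ptch1* (0.64), *Gata3* (0.47), *Ccnd2* (0.50), *Dock1* (0.15), *Crabp2* (−0.22) and *mt-Co3* (−0.47), and so did the medians of the lower outer root sheath and hair germ (0.60), sebaceous gland (0.14, over 5 of 6 genes) and proliferation lists (0.59, over 4 of 7). The same 5 sebaceous gland and 4 proliferation genes had medians of −0.89 and −0.82 over all cells, both under 2-fold. Without plate 2, *Krt75* turned to 0.21 and *Mitf* to 0.035. In the cells with *Krt6a*, *Ptch1* (1.23), *Gata3* (0.54), *Ccnd2* (0.050), *Gas6* (0.32), *Map1lc3b* (0.50), *Diablo* (−0.26), *Fosb* (5.97), *Fos* (5.199), *Fdft1* (0.82), *Nfe2l2* (1.60), *Crabp2* (−0.18) and the proliferation median (0.050, over 5 of 7 genes) turned sign. Without the 5 alive cells low in *Krt5* and *Krt14*, also added, the sebaceous gland median was 1.119 over the 3 of 6 genes left, whose median over all cells was 1.403. The cause of these changes was not tested. The other settings turned none of the named genes and lists past 2-fold. Of the named genes under 2-fold, 0 to 29 of the 60 to 67 with a ratio changed sign under a setting, most in the cells with *Krt6a*. No paired analysis was possible because each side was 1 pool and no test was made.

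The main limit is that 15 and 28 cells of 1 pool each carry the comparison, on 1 plate against 2. The 2 alive plates also differed as much as plates of different labels. That difference rests on the 9 cells of plate 2, of which 3 were low in *Krt5* and *Krt14*. Intervals cover counting error only, not animals, plates or cells. *Aldh1a2* stayed between 3.20 and 5.98 over all alternatives, *Tyro3* between 0.86 and 2.16 and *Axl* between −0.41 and 1.35.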

Other observations

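Lists of metabolism and signalling also held genes at both ends. Of 7 proliferation genes with enough counts none was at least 2-fold higher in apop cells and 5 were lower, with *Mcm6*, a subunit of the replicative helicase, at 4.41 and 65 CPM (log2 ratio −3.88) and *Ccnd2*, cyclin D2, at 65.2 and 202.8 CPM (−1.64). Of 13 genes of the oxidative stress response, 6 were higher and 3 lower. *Cat*, catalase, stood at 128.6 and 54.7 CPM (1.23) and *Nfe2l2*, the transcription factor NRF2, at 34.4 and 69.9 CPM (−1.02). Of 12 cholesterol genes, 3 were higher and 3 lower, with *Fdft1*, squalene synthase, at 23.8 and 68.4 CPM (−1.52). Of 18 glycolysis genes, 2 were higher and 6 lower (11.1% and 33.3%), with *Pfkp* at 1.33 and *Pgam1* at −2.08. Over all genes 16.5% were higher and 29.2% lower.

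Of 17 BMP and TGFβ genes, 3 were higher and 5 lower, and of 15 Wnt and hedgehog genes 1 was higher and 7 lower. These shares were 17.6% and 29.4%, and 6.67% and 46.7%, beside 16.5% and 29.2% over all genes. *Tgfbr2* had a log2 ratio of −2.76, with 64.7% of its alive counts in 1 cell, and −0.97 without the 5 alive cells low in *Krt5* and *Krt14*. *Lrp6*, a Wnt coreceptor, was the higher one at 581 and 220.9 CPM (1.396). Of 80 nuclear genes of the respiratory chain, 13 were higher and 11 lower (16.25% and 13.75%), with a median of 0.14.

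The same contrast at CatVII was set beside the one at CatVI for 5238 genes with 100 or more counts at each stage, with no cell in common. Across these genes, which are not independent replicates, Pearson's r was 0.07 and Spearman's rho 0.01. Of 1691 of them past 2-fold at CatVI, 85 were past 2-fold in the same direction at CatVII and 73 in the opposite one, together 9.34% of them, beside 5.23% of all 5238 genes that were past 2-fold at CatVII.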
